A study of Mus musculus with 8 samples.

Results

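The forkhead (Fox) transcription factors were examined here as 30 array probes of 29 genes, out of 23473 gene probes of which 16631 carried a gene symbol. Members were taken by name alone: every probe whose platform symbol was Fox followed by a subfamily letter from a to s and a number, with Foxa2 and Foxh1 not included. Foxk1 had 2 probes (M300006743 and M300012266) and each of the other genes had 1. The probes covered the subfamilies A, B, C, D, E, F, I, J, K, L, N, O, P and Q.

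Forkhead factors bind DNA through a winged-helix domain. Several of them open or mark chromatin early in development, and others are governed mainly after translation. FoxO factors, for example, are phosphorylated by AKT and SGK kinases downstream of PI3K and are then held out of the nucleus. In the early mouse embryo FoxA factors are known for endoderm and notochord, FoxC factors for paraxial mesoderm and the vessels, FoxF factors for lateral plate mesoderm, and Foxj1 for motile cilia.

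The study profiled embryoid bodies made from mouse embryonic stem cells that carry a doxycycline (Dox) inducible Tbx6 gene and a GFP reporter at the T (Brachyury) locus, on single-colour Toray 3D-Gene arrays. Tbx6 is a T-box factor of presomitic mesoderm, and the series title gives its question as the induction of cardiac mesoderm by Tbx6 with no factor supplied from outside. Each of 4 groups held 2 arrays: DoxOn_day2, DoxOFF_day2, DoxOn_day4 and DoxOFF_day4. Cells were kept in serum-free differentiation medium without growth factors. Day 4 cells had also been dissociated and reaggregated at day 2. All 4 groups shared the cell line and its transgene, so no group was given Dox without the transgene, and no source used here gives the days on which Dox was present, the promoter that drives the transgene or whether the line is 1 clone. Whether the 2 replicates of a group were separate cultures is not in the labels; the p-values below therefore measure only how far these samples spread, and that spread may be technical.

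Values are log2 intensities after subtraction of the mean of each array's blank spots and quantile normalisation, with a floor at log2 1.04. Changes were tested with limma over 21661 probes with Benjamini-Hochberg adjustment, and a probe was called at an adjusted p under 0.05. Errors after ± are standard errors of the fitted difference with 2 arrays in each group. Between 86.0% and 89.2% of gene probes lay more than 2 SD above the blank mean on each array, and arrays of a group correlated at 0.993 or higher against at most 0.985 between groups. The blank mean itself moved with the groups, at 52.3 and 52.9 intensity units in DoxOn_day2, 53.5 and 54.1 in DoxOFF_day2, 56.9 and 57.5 in DoxOn_day4 and 58.2 and 60.9 in DoxOFF_day4, and its part in the results was not tested. The Tbx6 probe was 0.62 ± 0.12 log2 higher with Dox at day 4 (adjusted p = 0.00915) and did not pass at day 2 (−0.20 ± 0.12, adjusted p = 0.395). No source used here says whether this probe reads the transgene. Cell type markers separated the day 4 groups, where 14.4% of all tested probes were called higher with Dox and 15.5% lower. Of 8 tested pluripotency markers 7 were higher with Dox at day 4 and 0 lower, with a summed intensity of 13357 to 13406 against 165 to 182 without Dox and 29825 to 33837 at day 2. Of 10 primitive streak and nascent mesoderm markers 9 were higher and 0 lower, with sums of 3014 to 3101 against 181 to 195, and Mesp1 was not above blank on either DoxOFF_day4 array. Of 7 tested neural markers 0 were higher and 5 lower, with sums of 369 to 374 against 4366 to 4745, and Neurog2 was not above blank in any group. These arrays read bulk RNA, so a change in the share of a cell type and a change of RNA per cell cannot be told apart, and the part of these cell type differences in the forkhead values was not tested.

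Of the 30 forkhead probes, 27 were above blank on all 8 arrays and 18 were also above the negative control spots on all 8. Foxp3 was above blank on 7 arrays and Foxc1 on 3. Foxi1, a factor of the inner ear and kidney, was above blank on 0 arrays and was not tested, which leaves 29 tested probes of 28 genes. Foxc1, Foxp3 and Foxi1 exceeded the negative controls on 0 arrays. Of the 29 tested probes 11 were called in at least 1 of 5 comparisons and 18 in none, where 48.5% of all tested probes were called at least once. For 24 probes the 4 group means lay within 1 log2 unit of each other. Counted separately, 5 probes were called with a change of at least 2-fold in some comparison, as 21.4% of all tested probes were. These were Foxo1, Foxn4, Foxk1 probe M300006743, Foxn2 and Foxa1. Foxn2 and Foxa1 reached it only in the difference of Dox response between days, and both are also among the 24.

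Dox at day 2 moved no forkhead probe past the threshold: limma called 0 of 29, where 11.8% of all tested probes were called. At an unadjusted p under 0.05 there were 4 of 29, against 25.1% of all probes. At day 4, 7 of 29 were called, where 29.9% of all tested probes were. Foxo1, Foxa3, Foxn2, Foxj1 and 1 Foxk1 probe were higher with Dox (5 probes; 14.4% of all probes were called higher), and Foxp4 and Foxi2 were lower (2 probes; 15.5% of all probes were called lower). The forkhead share at day 4 was close to that of all probes. The median change over the 29 probes was −0.11 log2 at day 4, beside −0.04 over all tested probes, and −0.08 at day 2, beside −0.01. Both Dox arrays lay above or below both others for 14 of 29 forkhead probes at day 2 and for 20 at day 4. That share was not computed over all probes, so such separation is given below as description only. Only Foxo1 changed by at least 2-fold with Dox at day 4, where 10.9% of all probes were called with such a change. Normexp correction used the scanner's local background column, which followed the spot intensities themselves (correlation 0.984 to 0.998 per array). With it 0 forkhead probes were called in any comparison, and the calls over all probes fell to 0 at day 4 from 6483. The calls below are those made with the blank-spot correction. With no background correction 6809 of all probes were called at day 4, and of the 7 forkhead calls those of Foxa3 and Foxn2 were lost.

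**Figure D1:**
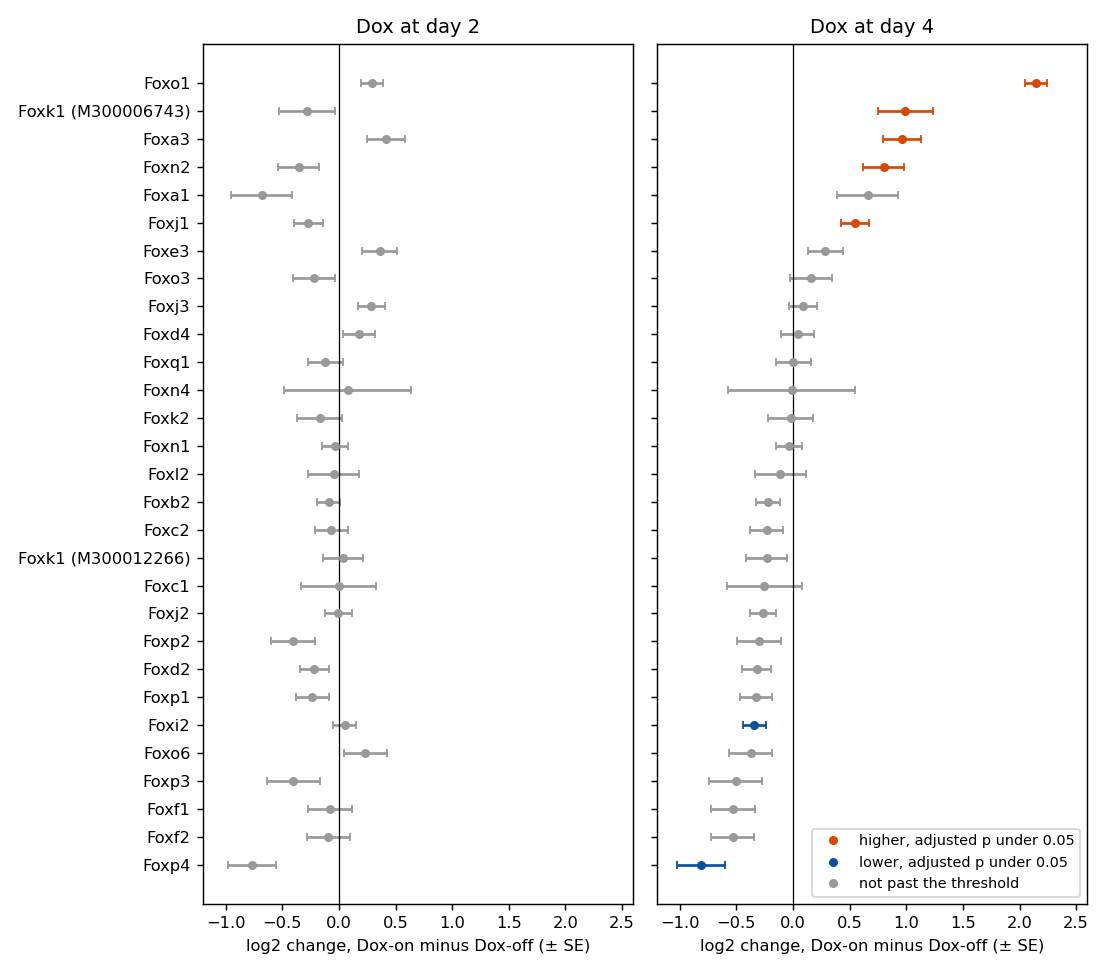
Log2 change with Dox (DoxOn minus DoxOFF, x axis, log2 units) of the tested forkhead probes at day 2 and day 4, in 1 panel per day; bars are ± 1 SE of the limma fit, and called probes are coloured. Foxo1 at day 4, at 2.15, stands to the right of all other probes, while all day 2 values lie between −0.77 and 0.41.

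Foxo1 carried the largest Dox change of the set. Its product is the insulin and growth factor regulated FoxO protein that controls metabolism, cell cycle exit and vessel formation, and its human counterpart is known to be needed for pluripotency in human embryonic stem cells. The Foxo1 probe read 6.72 and 6.83 in DoxOFF_day2, 7.07 and 7.05 in DoxOn_day2, 4.59 and 4.51 in DoxOFF_day4, and 6.75 and 6.65 in DoxOn_day4. The 2 DoxOFF_day4 arrays were the only low ones, and no group overlapped them. At day 4 the level with Dox was 2.15 ± 0.10 log2 above that without, a 4.44-fold difference (adjusted p = 1.18e-05). At day 2 the difference was 0.29 ± 0.10 (95% interval 0.06 to 0.52), with both Dox arrays above both others but an adjusted p of 0.115. The Dox response differed between the days by 1.86 ± 0.14 log2 (adjusted p = 0.000198). Without any 1 array the call at day 4 and the call of the difference both held, as they did under every other setting run except normexp.

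The Foxo1 promoter is shown because Foxo1 carries the main forkhead result. The window runs from 250 bases before to 50 bases after the transcript start, from RefSeq on GRCm38.p6 (chr3:52268087-52268386, plus strand). It had a GC content of 61.3%.

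Foxo1: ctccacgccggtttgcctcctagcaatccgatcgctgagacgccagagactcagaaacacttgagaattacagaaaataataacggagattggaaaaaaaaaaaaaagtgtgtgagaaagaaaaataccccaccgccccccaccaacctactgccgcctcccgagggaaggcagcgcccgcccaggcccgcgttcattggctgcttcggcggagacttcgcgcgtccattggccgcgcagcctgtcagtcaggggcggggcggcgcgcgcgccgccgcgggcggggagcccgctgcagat

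The other FoxO probes gave values that did not pass. Foxo3, a FoxO factor known for stress resistance and for keeping the ovarian follicle reserve, read 3.83 and 3.69 in DoxOFF_day2, 3.55 and 3.53 in DoxOn_day2, 3.61 and 3.05 in DoxOFF_day4, and 3.60 and 3.38 in DoxOn_day4. Its groups overlapped at day 4, where the difference with Dox was 0.16 (95% interval −0.29 to 0.62, adjusted p = 0.596). Foxo6, the brain-enriched FoxO factor, read 4.65 and 4.33 in DoxOFF_day4 and 4.13 and 4.09 in DoxOn_day4. Its difference of −0.37 at day 4 (95% interval −0.83 to 0.08, adjusted p = 0.202) lay on the other side of 0 from that of Foxo1.

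**Figure D2:**
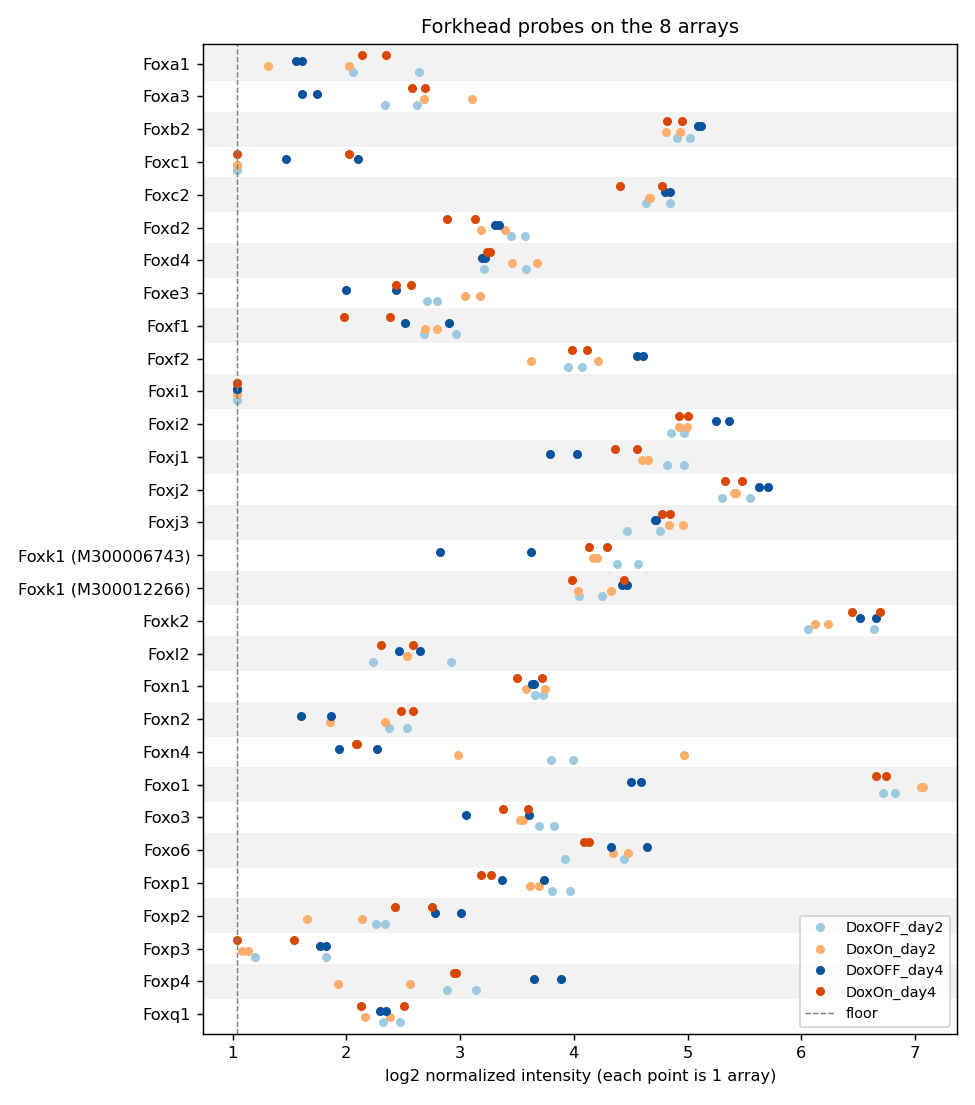
Log2 normalised intensity (x axis) of the 30 forkhead probes, 1 row per probe, with each of the 8 arrays as a point coloured by group and the floor as a dashed line. Foxo1 falls to 4.59 and 4.51 on the DoxOFF_day4 arrays and lies between 6.65 and 7.07 on the other 6.

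Genes that act on FoxO proteins were called in both directions, as were all probes (14.4% higher and 15.5% lower at day 4, and 11.8% in either direction at day 2). Of 14 tested FoxO regulators, 3 rose and 4 fell under Dox at day 4 (median −0.13 log2, beside −0.04 for all probes). At day 2, 2 were higher and 2 lower (median 0.25, beside −0.01). The list holds PI3K-AKT pathway genes and also Skp2 and Sirt1. Sgk1 and Sgk3, kinases that phosphorylate FoxO proteins as AKT does, were higher at day 4 by 3.85 ± 0.20 (adjusted p = 2.15e-05) and 2.63 ± 0.24 log2 (adjusted p = 0.000284). Irs2, an adaptor of the insulin receptor, was lower by −1.09 ± 0.10 (adjusted p = 0.000328). At day 2 the largest called changes were those of Akt1 (1.11 ± 0.15, adjusted p = 0.00481), the insulin-like growth factor receptor gene Igf1r (−0.81 ± 0.15, adjusted p = 0.0181) and the PI3K catalytic subunit gene Pik3cb (0.78 ± 0.12, adjusted p = 0.00850).

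Of 19 tested FoxO target genes, 4 rose and 4 fell under Dox at day 4 (median −0.04 log2, the same to 2 decimals as over all probes), and 2 were higher and 4 lower at day 2 (median 0.03). The growth arrest gene Gadd45b (1.60 ± 0.13, adjusted p = 0.000165) and the cell cycle inhibitor Cdkn1a (1.25 ± 0.13, adjusted p = 0.000480) were higher at day 4. Fbxo32, a ubiquitin ligase subunit of muscle wasting, was lower (−1.27 ± 0.17, adjusted p = 0.00171). At day 2 Ccng2, an atypical cyclin, was lower by −1.96 ± 0.13 (adjusted p = 0.000355) and the thioredoxin inhibitor gene Txnip by −0.98 ± 0.11 (adjusted p = 0.00283). Sod2, the mitochondrial superoxide dismutase, was higher by 0.92 ± 0.11 (adjusted p = 0.00284).

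**Figure D3:**
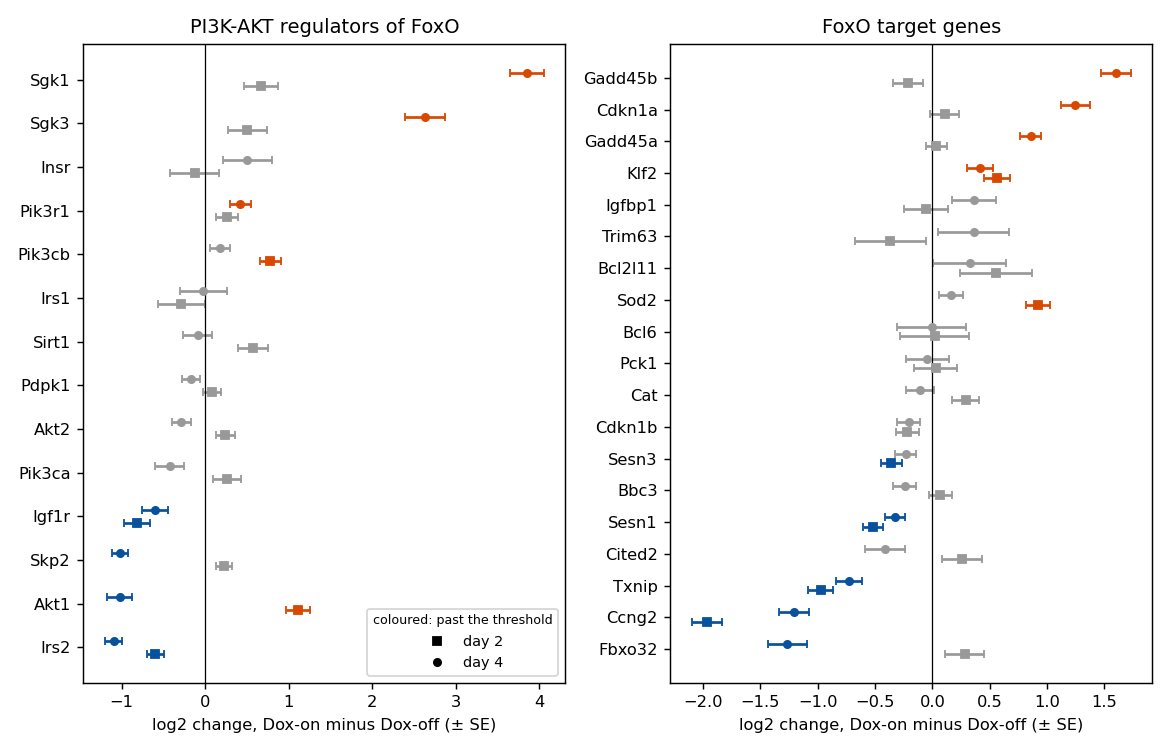
Log2 change with Dox (x axis, log2 units) at day 2 and day 4 of each tested FoxO regulator (PI3K-AKT genes, Skp2 and Sirt1) and FoxO target gene, with bars of ± 1 SE and called genes coloured. Both lists spread to both sides of 0; Sgk1 at day 4, at 3.85, is the farthest to the right.

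Foxa3 and Foxa1 belong to the subfamily that opens chromatin in endoderm and liver. Foxa3 read 2.62 and 2.34 in DoxOFF_day2, 3.10 and 2.68 in DoxOn_day2, 1.74 and 1.61 in DoxOFF_day4, and 2.58 and 2.69 in DoxOn_day4. As with Foxo1, the 2 DoxOFF_day4 arrays were the lowest. The difference with Dox at day 4 was 0.96 ± 0.17 log2, or 1.94-fold (adjusted p = 0.00558), and at day 2 it was 0.41 ± 0.17 (adjusted p = 0.189). The 2 responses did not differ by the test (0.55 ± 0.24, adjusted p = 0.159). The day 4 call held without any 1 array. With no background correction the change was 0.07 (adjusted p = 0.0972), and Foxa3 exceeded the negative control spots on 5 of 8 arrays.

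Foxa1 was above blank on all 8 arrays but above the negative controls on only 2. It read 2.06 and 2.64 in DoxOFF_day2 and 1.31 and 2.02 in DoxOn_day2, so that both Dox arrays lay below both others. Visceral endoderm markers were mixed at day 2, with most of the called ones lower with Dox. Of 7 tested, 4 were lower and 1, Amn, was higher (0.997 ± 0.116, adjusted p = 0.00299). Apob (0.104) and Gata4 (0.0705) were not called. Over all tested probes 11.8% were called at day 2 in either direction. The summed intensity of the 8 markers on the array was 68.5 to 77.7 with Dox against 111 to 134 without. Ttr and Apoa1 were not above blank on either DoxOn_day2 array, Afp was not above blank on any array of either day 2 group, Dab2 changed by −2.12 ± 0.33 (adjusted p = 0.00846) and Sox7 by −1.35 ± 0.30 (adjusted p = 0.0346). Of 6 tested definitive endoderm markers 1, Sox17, was lower (−1.17 ± 0.21, adjusted p = 0.0160) and 0 were higher, with sums of 105 to 113 against 111 to 129. The part of these markers in the Foxa1 values was not tested. At day 4 the visceral endoderm sums were 40.8 to 41.3 with Dox and 41.4 to 45.9 without (1 marker higher and 2 lower). The definitive endoderm sums were 250.2 to 263.9 with Dox and 157.8 to 169.8 without (1 higher and 1 lower). Over all probes 14.4% were called higher and 15.5% lower at day 4. Gsc, which is also in the primitive streak list, averaged 7.41 log2 in DoxOn_day4 and 4.34 in DoxOFF_day4. Cxcr4 averaged 4.29 and 5.98, so these sums do not show a rise shared by the list. For Foxa1 the order at day 4 was the opposite of that at day 2, with 1.56 and 1.61 in DoxOFF_day4 and 2.14 and 2.35 in DoxOn_day4. Neither difference was called (−0.68 ± 0.27 at day 2, adjusted p = 0.178, and 0.66 ± 0.27 at day 4, adjusted p = 0.121), although at day 4 it passed in a fit of those 2 groups alone (adjusted p = 0.0304) and with the replicate number as a block (adjusted p = 0.0453). The change between the responses was called, at 1.34 ± 0.38 log2 (adjusted p = 0.0488), but the call was lost without any 1 of 6 arrays, DoxOn_day2 replicate 2 and DoxOFF_day2 replicate 1 being the exceptions (adjusted p 0.100 to 0.142). It was also lost in the authors' processed table (0.0624), with 75th percentile scaling (0.0621), with a floor of 1 blank SD (0.0606) and with no filter on dim probes (0.100), and with no background correction the value shrank to 0.09 (0.180).

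The promoters of both genes are shown because they are the FoxA members and because the Foxa1 window was the single forkhead window with the searched forkhead motif. That motif was TGTTTAC, searched on both strands. In Foxa1 (chr12:57546062-57546361, minus strand, GC content 62.3%) it lay on the other strand, reading GTAAACA in capitals below, 141 bases before the start. The Foxa3 window (chr7:19023490-19023789, minus strand, GC content 69.0%) had no match.

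Foxa3: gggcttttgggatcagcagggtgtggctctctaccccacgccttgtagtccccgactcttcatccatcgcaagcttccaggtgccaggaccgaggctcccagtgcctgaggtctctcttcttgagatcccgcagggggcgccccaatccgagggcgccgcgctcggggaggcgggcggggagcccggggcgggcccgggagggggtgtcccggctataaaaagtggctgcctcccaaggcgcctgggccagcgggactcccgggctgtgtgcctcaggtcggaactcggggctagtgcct
Foxa1: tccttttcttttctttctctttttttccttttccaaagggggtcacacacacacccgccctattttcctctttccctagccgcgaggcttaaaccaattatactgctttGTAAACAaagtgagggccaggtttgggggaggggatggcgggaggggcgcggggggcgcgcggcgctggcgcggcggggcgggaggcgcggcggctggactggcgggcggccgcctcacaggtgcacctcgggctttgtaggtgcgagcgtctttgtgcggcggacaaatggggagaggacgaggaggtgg

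Foxj1, the factor that switches on the genes of motile cilia, read 4.82 and 4.97 in DoxOFF_day2, 4.65 and 4.60 in DoxOn_day2, 4.03 and 3.79 in DoxOFF_day4, and 4.55 and 4.36 in DoxOn_day4. Both Dox arrays were below the others at day 2 and above them at day 4. The day 4 difference was 0.55 ± 0.13 log2 or 1.46-fold (adjusted p = 0.0183), the day 2 difference was −0.27 ± 0.13 (adjusted p = 0.256), and the responses differed by 0.82 ± 0.18 (adjusted p = 0.0198). The day 4 call was lost without DoxOn_day4 replicate 1 (adjusted p = 0.0961), without DoxOFF_day4 replicate 2 (0.0890) and in a fit of the day 4 groups alone (0.0681). The difference between days was lost without any 1 of 5 arrays: DoxOn_day2 replicates 1 and 2, DoxOFF_day2 replicate 2, DoxOn_day4 replicate 1 and DoxOFF_day4 replicate 2 (adjusted p at most 0.0679).

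Of 14 tested genes in a list of cilia genes, 1 was higher and 2 lower with Dox at day 4 (median −0.19 log2, beside −0.04 for all probes). Over all probes 14.4% were called higher and 15.5% lower. Dnaic1, a dynein intermediate chain of the ciliary motor, was higher by 1.13 ± 0.13 (adjusted p = 0.000926). Ccdc40, which sets the axonemal ruler, was lower by −0.47 ± 0.13 (adjusted p = 0.0381), and Ift172, a component of intraflagellar transport, by −0.45 ± 0.14 (adjusted p = 0.0461). At day 2, 1 gene of the list was higher and 1 lower, where 11.8% of all probes were called in either direction. Foxj2 and Foxj3, widely expressed relatives, were not called: their day 4 differences were −0.27 (95% interval −0.55 to 0.02) and 0.09 (95% interval −0.20 to 0.38).

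The 2 probes of Foxk1, a repressor of autophagy and a regulator of muscle progenitors, gave different answers. Probe M300006743 read 4.56 and 4.38 in DoxOFF_day2, 4.20 and 4.17 in DoxOn_day2, 2.83 and 3.62 in DoxOFF_day4, and 4.29 and 4.13 in DoxOn_day4. It was 0.99 ± 0.24 log2 higher with Dox at day 4, or 1.99-fold (adjusted p = 0.0223), and its response differed from that at day 2 by 1.27 ± 0.34 (adjusted p = 0.0408). Probe M300012266 read 4.43 and 4.47 in DoxOFF_day4 against 3.99 and 4.44 in DoxOn_day4, where its difference was −0.23 (95% interval −0.66 to 0.20, adjusted p = 0.395). The interval of the second probe did not reach the value of the first. The call of M300006743 at day 4 was lost without either DoxOn_day4 array (adjusted p 0.117 and 0.0736), in a fit of the day 4 groups alone (0.105) and with no filter on dim probes (0.0554), and its call of the difference without any 1 of 6 arrays, the DoxOFF_day4 arrays being the exceptions (adjusted p at most 0.125), and with the replicate block (0.0622). The call of the difference for M300006743 was also lost with no filter on dim probes (adjusted p = 0.0852) and with a floor of 1 blank SD (0.0511). No source used here says which transcripts each probe covers. Foxk2, its paralog, differed by −0.02 at day 4 (95% interval −0.50 to 0.46).

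Foxn2, a little studied factor of the FoxN subfamily, read 2.38 and 2.53 in DoxOFF_day2, 1.86 and 2.34 in DoxOn_day2, 1.86 and 1.61 in DoxOFF_day4, and 2.48 and 2.59 in DoxOn_day4. Both Dox arrays were lower at day 2 and higher at day 4. The day 4 difference was 0.80 ± 0.18 log2 or 1.74-fold (adjusted p = 0.0154), and the responses differed by 1.16 ± 0.25 (adjusted p = 0.0190). The probe exceeded the negative controls on 3 of 8 arrays. With no background correction the call of the difference between the responses was lost (adjusted p = 0.135). The day 4 call was lost without DoxOn_day4 replicate 1 (adjusted p = 0.0602) or replicate 2 (0.0816), without DoxOFF_day4 replicate 2 (0.0960) and with no background correction (0.131); the difference was lost without those same arrays or DoxOFF_day2 replicate 2 (adjusted p at most 0.0717).

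Foxn4, which directs retinal and spinal interneuron fates, showed no Dox difference that could be told from its replicate spread. It read 4.97 and 2.98 in DoxOn_day2, and that gap of 1.99 log2 was the widest between replicates of any forkhead probe. The DoxOFF_day2 arrays, at 3.99 and 3.80, lay between those 2 values. At day 2 the difference was 0.08 ± 0.56, but it became −0.92 without DoxOn_day2 replicate 1 (adjusted p = 0.0518) and 1.08 without replicate 2 (adjusted p = 0.0365), so a single array set its sign. At day 4 the values were 2.27 and 1.93 without Dox and 2.09 and 2.09 with it (−0.01 ± 0.56, adjusted p = 1). Foxn1, the factor of thymic epithelium, lay between 3.50 and 3.74 on all 8 arrays.

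Foxp4 was the forkhead probe with the largest called fall under Dox. It is a repressor related to Foxp1 and Foxp2 and is known from gut, lung and neural progenitors. It read 3.14 and 2.89 in DoxOFF_day2, 2.56 and 1.93 in DoxOn_day2, 3.89 and 3.65 in DoxOFF_day4, and 2.96 and 2.95 in DoxOn_day4. Both Dox arrays were below both others on each day. The difference was −0.77 ± 0.21 at day 2 (adjusted p = 0.0687) and −0.82 ± 0.21 at day 4 (adjusted p = 0.0284), and the 2 responses differed by −0.05 (95% interval −0.77 to 0.67). The day 4 call was lost without any 1 of the 4 day 4 arrays (adjusted p 0.0754 to 0.144) and with no filter on dim probes (0.0630). The day 2 value passed without DoxOn_day2 replicate 1 (−1.08, adjusted p = 0.0279), with the replicate block (0.0420) and with 75th percentile scaling (0.0459).

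The Foxp4 window (chr17:47924583-47924882, minus strand, GC content 70.3%) is shown as the counterpart that was lower with Dox. It held none of the searched motifs.

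Foxp4: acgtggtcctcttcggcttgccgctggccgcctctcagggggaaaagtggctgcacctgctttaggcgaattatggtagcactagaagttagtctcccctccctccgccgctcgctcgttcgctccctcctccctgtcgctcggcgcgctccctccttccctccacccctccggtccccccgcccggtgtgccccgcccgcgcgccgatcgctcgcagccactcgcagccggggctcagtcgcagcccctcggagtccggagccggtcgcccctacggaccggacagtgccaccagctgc

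The other FoxP probes did not pass for Dox. Foxp1, known from heart, B cell and motor neuron development, was −0.32 at day 4 (95% interval −0.67 to 0.02), and passed without DoxOFF_day4 replicate 1 (−0.51, adjusted p = 0.0385). Foxp2, known from speech circuits in humans and from lung and brain in mice, read 2.34 and 2.26 in DoxOFF_day2, 1.66 and 2.14 in DoxOn_day2, 2.78 and 3.01 in DoxOFF_day4, and 2.43 and 2.75 in DoxOn_day4. Its Dox differences were −0.41 and −0.30 (adjusted p = 0.254 and 0.299). Foxp3, the factor of regulatory T cells, stayed at or below 1.82 and never exceeded the negative controls.

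FoxC and FoxF factors, the subfamilies tied most closely to mesoderm, were not called in any of the 5 comparisons as fitted. Foxc1 was at the floor on all 4 day 2 arrays. At day 4 it read 1.47 and 2.11 without Dox and 2.03 and 1.04 with Dox and never exceeded the negative controls. Foxc2 read 4.84 and 4.80 in DoxOFF_day4 and 4.40 and 4.77 in DoxOn_day4, a difference of −0.23 (95% interval −0.58 to 0.11, adjusted p = 0.292). Foxf1, which patterns splanchnic mesoderm and is needed for vessels of the yolk sac, read 2.52 and 2.91 in DoxOFF_day4 and 1.98 and 2.38 in DoxOn_day4. Its difference was −0.53 (95% interval −0.99 to −0.07, adjusted p = 0.0855). Foxf2, known from palate and gut mesenchyme, read 4.56 and 4.60 in DoxOFF_day4 and 3.98 and 4.11 in DoxOn_day4, a difference of −0.53 (95% interval −0.98 to −0.09, adjusted p = 0.0768). For both FoxF probes the Dox arrays lay below the others at day 4, and the Foxf2 difference passed in a fit of the day 4 groups alone (adjusted p = 0.0319) and without either DoxOn_day2 array (0.0164). Over time without Dox Foxf2 read 4.07 and 3.95 at day 2 and 4.56 and 4.60 at day 4, a change of 0.57 ± 0.19 just short of the threshold (adjusted p = 0.0524) that passed under 7 alternatives (adjusted p 0.0101 to 0.0414).

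Genes of the mesoderm in which these factors act are given beside the 14.4% of all probes called higher and 15.5% called lower at day 4. Of 12 tested paraxial mesoderm genes, 2 rose and 4 fell under Dox at day 4 (median −0.38 log2, beside −0.04 for all probes), the 2 higher being Tbx6 itself and Dll3. Lfng, a modulator of Notch receptors, was lower by −3.43 ± 0.20 (adjusted p = 3.93e-05), and the paired-box gene Pax3 by −3.37 ± 0.22 (adjusted p = 6.26e-05). The Notch ligand gene Dll1 was lower by −1.88 ± 0.13 (adjusted p = 7.67e-05). Lfng, Pax3 and Dll1 are also used by neural cells, whose markers were lower in the same comparison. The part of neural cells in these values was not tested. Of 9 tested lateral plate genes, 4 were higher and 0 lower at day 4 (median 0.50), and 3 were higher and 1 lower at day 2. Over all probes 11.8% were called in either direction at day 2. Bmp4, a ligand that specifies ventral mesoderm, was higher by 3.96 ± 0.10 at day 4 (adjusted p = 1.25e-06) and by 5.09 ± 0.10 at day 2 (adjusted p = 8.37e-06). Gata6 was higher by 1.40 ± 0.21 at day 4 (adjusted p = 0.00262) and lower by −1.42 ± 0.21 at day 2 (adjusted p = 0.00685). Tbx3 was higher on both days, by 1.07 ± 0.19 at day 4 (adjusted p = 0.00651) and 1.27 ± 0.19 at day 2 (adjusted p = 0.00838).

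Foxi2, a factor of the head ectoderm, was lower with Dox at day 4 by a small margin. It read 5.25 and 5.36 in DoxOFF_day4 and lay between 4.85 and 5.0 on the other 6 arrays. The difference was −0.34 ± 0.10 log2 or 1.27-fold (adjusted p = 0.0430). The call was lost without any 1 of the 8 arrays (adjusted p 0.0555 to 0.156), with the replicate block (0.0762) and in a fit of the day 4 groups alone (0.0815). The remaining probes were called for Dox on neither day. Foxb2 lay between 4.81 and 5.12 over the 8 arrays, Foxd2 between 2.88 and 3.57, Foxd4 between 3.19 and 3.68, Foxl2, the ovarian factor, between 2.24 and 2.92, and Foxq1 between 2.13 and 2.51. Over the 18 probes called in no comparison the Dox change ran from −0.41 to 0.29 log2 at day 2 and from −0.53 to 0.16 at day 4. At day 4, 14 of those 18 were lower and 4 higher with Dox, with no adjusted p below 0.0768. Those 18 leave out the probes called for Dox at day 4, of which 5 were higher and 2 lower. Signs were not counted over all probes, so no lean of the uncalled forkhead probes is read from this.

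Between day 2 and day 4 without Dox, 9 of 29 forkhead probes were called, where 38.1% of all tested probes were. This comparison shares the DoxOFF_day4 arrays with the Dox comparison at day 4, so the same low or high values on those 2 arrays enter both. Of the 9, 7 were lower at day 4 (17.9% of all probes) and 2 higher (20.2%). The change was at least 2-fold for 3 (Foxo1, Foxn4 and Foxk1 probe M300006743), where 15.2% of all probes were called with such a change. Foxo1 was lower by −2.22 ± 0.10 log2, or 4.66-fold (adjusted p = 8.02e-06), and Foxj1 by −0.99 ± 0.13, or 1.98-fold (adjusted p = 0.00106). Those were the calls that held under every alternative except normexp. With no background correction the calls of Foxa3 (adjusted p = 0.153), Foxn2 (0.162), Foxe3 (0.190) and Foxn4 (0.233) over this interval were lost. The Foxk1 probe M300006743 was lower by −1.24 ± 0.24 (adjusted p = 0.00683, but 0.0518 in a fit of the DoxOFF groups alone). Foxa3 was lower by −0.81 ± 0.17 (adjusted p = 0.00896; 0.0545 without DoxOFF_day2 replicate 1, 0.0601 without DoxOFF_day4 replicate 2). Foxn2 was lower by −0.72 ± 0.18 (adjusted p = 0.0186), and the call was lost without any 1 DoxOFF array other than DoxOFF_day4 replicate 1 (adjusted p at most 0.108).

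The other called changes without Dox were less stable. Foxe3, the lens factor, read 2.79 and 2.71 at day 2 and 2.00 and 2.43 at day 4, a change of −0.54 ± 0.16 (adjusted p = 0.0348) that was lost without any 1 array except DoxOFF_day4 replicate 2 (adjusted p at most 0.134). Foxn4 changed by −1.80 ± 0.56, or 3.47-fold (adjusted p = 0.0435, and 0.00527 in a fit of the DoxOFF groups alone). Foxn4 also had a gap of 1.99 log2 between its DoxOn_day2 arrays, which enter the main fit's estimate of spread. Its call was lost without any 1 of the other 6 arrays (adjusted p 0.0809 to 0.190) but not without either DoxOn_day2 array (0.000596). Foxp4 was higher at day 4 by 0.76 ± 0.21 (adjusted p = 0.0303), lost without any 1 array outside DoxOn_day2 (adjusted p 0.0580 to 0.154). Foxi2 was higher by 0.39 ± 0.10 (adjusted p = 0.0210), lost without replicate 2 of DoxOFF_day2 (0.0972) or of DoxOFF_day4 (0.0841).

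In the gene lists tied to these factors, counts over the same interval stand beside 20.2% of all probes called higher and 17.9% called lower. Of the 19 FoxO target genes 8 were lower and 3 higher without Dox (median −0.42 log2, beside 0.04 for all probes), led by Gadd45a (−2.57 ± 0.09, adjusted p = 3.34e-06), Gadd45b (−2.33 ± 0.13, adjusted p = 2.09e-05) and Txnip (−1.93 ± 0.11, adjusted p = 2.57e-05). Of the 14 FoxO regulators 6 were higher and 2 lower (median −0.01), with Sgk1 at −2.91 ± 0.20 (adjusted p = 5.68e-05), Akt1 at 1.78 ± 0.15 (adjusted p = 0.000126) and Sgk3 at −1.61 ± 0.24 (adjusted p = 0.00196). Of the 14 cilia genes 4 were lower and 1 higher (median 0.05). Tekt2, a tektin of the axoneme, was lower by −2.86 ± 0.32 (adjusted p = 0.000547), Dnaic1 by −2.27 ± 0.13 (adjusted p = 2.57e-05) and Ccdc40 by −0.50 ± 0.13 (adjusted p = 0.0246).

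With Dox, 3 of 29 forkhead probes changed between day 2 and day 4, where 19% of all tested probes did. Foxe3 was lower by −0.61 ± 0.16 (adjusted p = 0.0392) and Foxo1 by −0.36 ± 0.10 (adjusted p = 0.0445), 2 probes where 9.33% of all were called lower. Foxp2 was higher by 0.69 ± 0.19 (adjusted p = 0.0493), 1 probe where 9.63% were called higher. Its change without Dox was 0.59 ± 0.19, just short of the threshold (adjusted p = 0.05002). That change passed with the replicate block (0.0301) and in a fit of the DoxOFF groups alone (0.0335). Foxp4, called higher over time without Dox, changed by 0.71 ± 0.21 with Dox and did not pass (adjusted p = 0.0652). No forkhead probe was called with a change of at least 2-fold, against 6.7% of all probes. None of the 3 calls held in each fit that left out 1 array: for Foxo1 the call was lost without any 1 of the 8 (adjusted p 0.0534 to 0.159), for Foxe3 without any 1 of the arrays other than the DoxOFF_day4 arrays (at most 0.178) and for Foxp2 without any 1 array except DoxOn_day2 replicate 2 (at most 0.219). Foxn4 fell from 4.97 and 2.98 to 2.09 and 2.09, a change of −1.89 ± 0.56 that did not pass (adjusted p = 0.0617), and passed at −0.89 without DoxOn_day2 replicate 1 (0.0358) and at −2.88 without replicate 2 (0.00169). Mitosis genes of the FoxM1 and MuvB programme, a list included because FoxM1 is a forkhead factor, went down in the same comparison: of 18 tested, 9 were lower and 0 higher with Dox over time (median −0.49 log2, beside 0.00 for all probes), with Mybl2 at −2.21 ± 0.27 (adjusted p = 0.00201), Cdc25b at −0.75 ± 0.20 (adjusted p = 0.0433) and Aurka at −0.65 ± 0.11 (adjusted p = 0.00831). At day 4, 1 gene of that list was higher and 3 lower with Dox, and at day 2, 4 were higher and 0 lower. Over all probes 14.4% were called higher and 15.5% lower at day 4, and 11.8% in either direction at day 2.

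**Figure D4:**
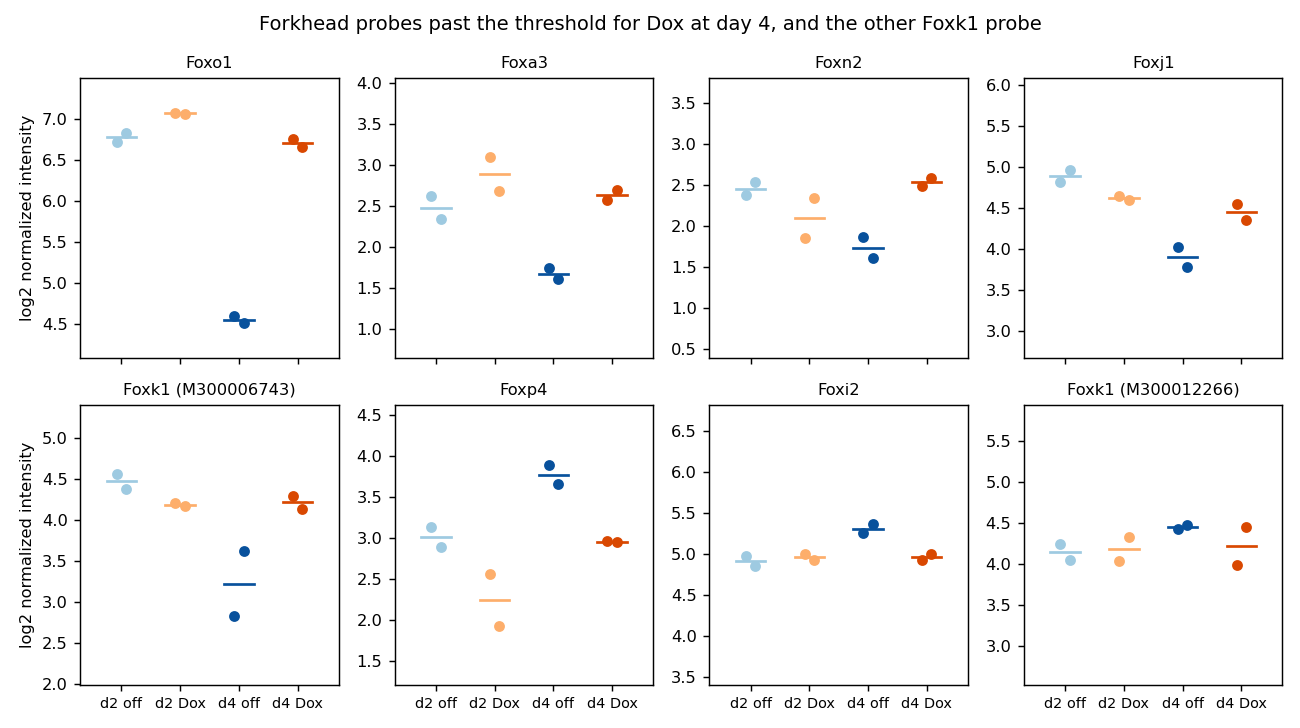
Log2 normalised intensity (y axis, the same span in each panel) by group of the 7 forkhead probes called for Dox at day 4 and of the other Foxk1 probe, with each array as a point and the group mean as a line. By group mean, Foxo1, Foxa3, Foxn2, Foxj1 and the Foxk1 probe M300006743 are lowest in DoxOFF_day4, and Foxp4 and Foxi2 are highest there.

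The Dox response differed between day 2 and day 4 for 5 of 29 probes, where 22.1% of all tested probes differed. All 5 (Foxo1, Foxn2, Foxj1, Foxk1 probe M300006743 and Foxa1) had the higher response at day 4, a direction called for 11.1% of all probes, and 0 had the lower one, called for 11% of all probes. Of the 5, 4 differed by at least 2-fold (all but Foxj1), as 12.4% of all probes did. The median difference over the 29 probes was −0.09 log2, beside −0.04 over all.

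Promoter windows of 300 bases from RefSeq (GRCm38.p6) were available for 21 of the 29 genes, 24 windows in all, among them 4 of the 7 genes called for Dox at day 4 (Foxo1, Foxa3, Foxp4 and Foxi2). The T-box letters AGGTGTGA, searched on both strands, were in 0 of 24 forkhead windows and in 1.28% of all 32851 windows. The shorter GGTGTGA, which AGGTGTGA contains, was in 0 of 24 and 3.98%. The forkhead letters TGTTTAC were in 1 of 24, that of Foxa1, and 3.65%, and the TCF letters CTTTGAT in 0 of 24 and 3.73%. A missing match says only that these letters are not in the window. Forkhead windows were richer in GC, with a median of 64.2% against 52.7% over all windows, and in CpG, with a median observed over expected ratio of 0.70 against 0.38; over the 24 windows the GC content ran from 40.7% to 79.3%. The Foxo1, Foxa1, Foxa3 and Foxp4 windows, between 61.3% and 70.3%, lay inside that range.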

How the data were processed

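RNA from embryoid bodies was labelled with Cy5 and hybridised to 8 single-colour Toray 3D-Gene arrays, per the labels' protocols. The authors deposited scanner files with a spot intensity and a local background intensity per spot, on a linear scale per the file headers and values, with readings at 3 scanner gains joined by fitted lines, and a table of processed intensities whose normalization no source used here gives. From the spot intensities the mean of each array's blank spots was subtracted, arrays were quantile normalised, log2 was taken after raising values under 2.06, the across-array median of 2 blank SDs, to that floor. Probes more than 2 SD above the blank mean on at least 2 arrays, with no spot marked poor, were kept (21661 of 23473). Groups were compared in 1 limma fit of all 4 groups (limma 3.58.1, R 4.3.3; lmFit and eBayes, 4 residual and 2.70 prior degrees of freedom), two-sided, with Benjamini-Hochberg adjustment over all tested probes. The 2 Foxk1 probes were kept apart, since levels of different probes are not comparable.

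Precision is limited by 2 arrays per group. The code was tested on simulated data. Gene symbols are those of the platform annotation, updated through RefSeq's gene table (GRCm38.p6) for the lists. Forkhead members called with at least 2-fold change were to be given on every array, other members by counts and ranges, and of each gene list at most 3 called genes per comparison with the largest change; values on every array of further members, and the other genes named in the counts, were added after their values were seen. The forkhead members and the gene lists were chosen with earlier results of these data known. Alternatives covered background correction, scaling, floor, filter, variance model, replicate block, the authors' table, membership and leaving out each array.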

Additional observations from a re-analysis of the deposited data

Results flagged for a closer look

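The Dox response differed between day 2 and day 4, by the interaction term of the limma fit, for 5 forkhead probes. For Foxo1 the response was 1.86 ± 0.14 log2 larger at day 4 (adjusted p = 0.000198). For Foxn2 it was 1.16 ± 0.25 larger (adjusted p = 0.0190), with 95% limits of 0.55 and 1.76. For Foxj1 it was 0.82 ± 0.18 larger (adjusted p = 0.0198). For the Foxk1 probe M300006743 it was 1.27 ± 0.34 larger (adjusted p = 0.0408), while the other Foxk1 probe gave −0.27 (adjusted p = 0.525). For Foxa1 it was 1.34 ± 0.38 larger (adjusted p = 0.0488), with a lower level under Dox on both arrays at day 2 and a higher one on both at day 4. Each group held 2 arrays, too few for a test of single outlying arrays.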

How the results depend on the processing

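Each result was recomputed under 19 alternatives, 8 of which left out 1 array. Normexp correction with the local background gave 0 forkhead calls in each comparison and turned 9 called changes, all to values near 0: Foxa3 at day 4 (−0.00657), the difference between days for Foxj1 (−0.0561) and Foxn2 (−0.00446), the time without Dox for Foxj1 (0.0299), Foxp4 (−0.00554), Foxk1 probe M300006743 (0.0117), Foxn2 (0.0141) and Foxe3 (0.00245), and the time with Dox for Foxe3 (0.0127). Over all probes it called 1 at day 2, 0 at day 4, 0 for the difference, 0 for time without Dox and 3 for time with Dox, beside 2557, 6483, 4794, 8263 and 4108. At an unadjusted p under 0.05 it gave 0 forkhead probes, except 1 for time without Dox. That column correlated with the spots at 0.984 to 0.998 per array; the cause of the lost calls was not tested. No called forkhead change reversed outside it.

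At day 2 there was 1 forkhead call with no background correction, 1 with 75th percentile scaling, 1 with no filter on dim probes and 1 with the replicate block, and 0 to 1 when 1 array was left out. At day 4 the 7 calls ranged from 2 to 7 without 1 array. The 5 calls of the difference became 3 with a floor of 1 blank SD and ranged from 1 to 4 without 1 array. The 9 calls over time without Dox ranged from 4 to 11. The 3 calls over time with Dox became 5 for probes above background on all 8 arrays, and 1 with no background correction, with the authors' table, with no filter or with only the groups compared, and ranged from 0 to 2 without 1 array. Over all probes the count at day 2 was 1345 in a fit of only the groups compared and 1163 to 2266 without 1 array, and that for time with Dox 2421 to 3840. Adding the probes that reach a Fox symbol only after updating left the counts at 0, 7, 5, 9 and 3. Replicate numbers were not taken to pair the samples, since the deviations of same-numbered arrays correlated at −0.27 to 0.23; with the number as a block the forkhead calls were 1, 7, 4, 11 and 4. With 2 arrays per group, changes below about the replicate gaps, and levels of the probes that did not exceed the negative controls, are not resolved.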

Other observations

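Probes listed under older names that now carry forkhead symbols, 2 for Foxn3 and 1 for Foxo4, were called in none of the 5 comparisons. Foxo4, the FoxO factor best known from vessel and muscle, was 0.25 ± 0.15 log2 higher with Dox at day 4 (adjusted p = 0.277), and −0.41 ± 0.15 between the days without Dox (adjusted p = 0.0763). The Foxn3 probes, for a transcriptional repressor tied to the DNA damage checkpoint, gave −0.29 ± 0.17 and −0.27 ± 0.13 with Dox at day 4 (adjusted p = 0.267 and 0.161).

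Replicate gaps varied widely among the forkhead probes. After Foxn4 in DoxOn_day2, the widest were those of Foxc1 in DoxOn_day4, where 1 array was at the floor (0.98 log2), of the Foxk1 probe M300006743 in DoxOFF_day4 (0.80), and of Foxa1 in DoxOn_day2 (0.71).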
